A study of Mus musculus and Acomys cahirinus with 84 samples.

Results

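Histones are the proteins around which nuclear DNA is wound, and this account follows the genes for the linker histones (H1) and for the clustered core histones (H2A, H2B, H3 and H4) in irradiated skin fibroblasts. Members were all genes whose symbol begins with H1f, H2ac, H2bc, H3c or H4c followed by a digit, or with the older Hist form, without the symbols marked -ps. The rule found 73 of the 56980 genes in the mouse table, after 3 marked symbols were dropped, and 67 of the 19818 genes in the table of the African spiny mouse, *Acomys cahirinus*. All 67 symbols of the spiny mouse table were also among the mouse members. Primary skin fibroblasts came from mice labelled C56BL6 (spelled as in the labels), from wild mice and from *A. cahirinus*, and stranded mRNA libraries were made from polyA RNA. Each of the 3 populations had 7 groups of 4 libraries, 84 libraries in all: cells given 0, 10 or 20 Gy of gamma radiation and collected at 24 h, cells given the same doses and collected at 12 d, and, in the 12 d series, untreated cells that were passaged. No genotype, transgene, age or sex was given in the sources used here, and no agent other than radiation was named. The 24 h libraries were batch B1 in the labels and the 12 d libraries batch B2, which means that a time effect and a batch effect cannot be told apart, and tests stayed within a time.

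Most clustered histone genes are switched on in S phase, when new DNA has to be packaged, and are called replication-dependent. Their messages normally end in a short stem-loop that is bound by the stem-loop binding protein SLBP, in place of a polyA tail, so a polyA library catches mainly the minority of transcripts that were polyadenylated. H1f0 (H1.0) and H1f10 (H1.10) are replication-independent linker histones with ordinary polyadenylated messages, and H1.0 is known for accumulating in cells that stop dividing or differentiate. The values below are therefore levels of polyadenylated histone RNA and not of all histone RNA.

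The stem-loop is the sequence that separates the ordinary from the replication-dependent members, and it was looked for within 150 bases after the stop codon on the coding strand of GRCm39, by its 16-base pattern: 2 guanines, 2 free bases, 1 cytosine, 4 thymines, 1 free base, 1 adenine, 1 guanine, 2 free bases and 2 cytosines. It was present in 61 of the 73 mouse members and in 65 of 21548 coding genes searched (0.302%), while 2 of those genes held it on the opposite strand. Capitals mark the 2 arms of 6 bases that pair with each other in all 61 members, and lower case marks the loop of 4 bases. These 4 are shown because the results below turn on 3 of the genes and because H4c9 carries a different arm:
H1f2: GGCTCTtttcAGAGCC
H2bc4: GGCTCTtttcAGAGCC
H2ac6: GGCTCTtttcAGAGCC
H4c9: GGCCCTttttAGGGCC
H1f2 had it at chr13:23923495-23923510 on the plus strand, H2bc4 at chr13:23868630-23868645 on the plus strand, H2ac6 at chr13:23867460-23867475 on the minus strand and H4c9 at chr13:22225136-22225151 on the minus strand. The first form was carried by 39 of the 61 members, and 6 distinct sequences occurred. The 12 members without a match were H1f0, H1f7, H1f8, H1f9, H1f10, H2ac22, H2bc21, H2bc22, H2bc23, H2bc24, H3c8 and H4c1. A missing match says only that these letters are not in this window.

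Depth and identity of the libraries were checked first. Between 26653561 and 39819857 counts were assigned per C56BL6 library, between 17419339 and 35984517 per wild library and between 25552727 and 52857478 per *A. cahirinus* library, so a floor of 3 counts lay at 0.0568 to 0.172 CPM (counts per 1000000 counts of the library). Of 10 fibroblast markers, 9 had a median of at least 1 CPM in each of the mouse populations, where Lum had a median below 1 CPM, and 10 in *A. cahirinus*. C56BL6 number 1 stood apart in every group by 7 summed keratinocyte markers, which reached 829.1 CPM. The wild libraries numbered 1 did not match between the times: 64 genes had at least 1 CPM in every library of number 1 at one time and at most 0.1 CPM in every library of number 1 at the other, whereas the other 11 same-numbered sets across times had 0 such genes. Wild number 1 at 12 d also had 0 such genes against wild number 4 at 24 h and against wild number 4 at 12 d, and other wild numbers at 12 d differed from each other by 22 to 83. Different numbers of C56BL6 mice and of *A. cahirinus* reached 0 as well, so a count of 0 does not by itself identify an animal. These limits were set after the values were seen. Results for wild mice at 12 d are therefore given with all 4 numbers and, where it matters, with number 1 set aside.

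A few members carried nearly all of the signal. Among the mouse members 8 had 0 counts in every library, 21 had at most 3 counts in every library, 18 reached a group mean of at least 1 CPM and 4 reached 10 CPM. In *A. cahirinus* the corresponding numbers were 6, 22, 9 and 4. The level per length, in CPM per kb of deposited gene length averaged over all libraries, was highest in mice for H1f0 (53.3), H1f2 (51.2), H2bc4 (43.3), H4c9 (4.42), H3c15 (2.14) and H4c8 (2.10). In *A. cahirinus* the order was H1f0 (85.0), H2bc4 (40.5), H1f2 (10.3), H1f10 (4.84), H1f9 (1.18) and H1f3 (1.11). The deposited lengths differ between the tables, with 1560 bases for H1f2 in mouse and 728 in *A. cahirinus*, and 7425 and 779 for H1f3. Levels per length can therefore not be set against each other across the tables. H4c9 was listed at 0 in every *A. cahirinus* library, as were H4c17 and H4c18, which the deposited table places over the same bases of scaffold_9, so this 0 cannot be set against the mouse level. All members together held 0.0167% to 0.0451% of a group's counts. Of the 73 mouse members, 54 lay on chromosome 13, 10 on chromosome 3, 4 on chromosome 11, 3 on chromosome 6 and 2 on chromosome 15. In *A. cahirinus* 53 of 67 lay on the scaffold labelled scaffold_9 and 10 on scaffold_7. Near-identical copies and overlapping genes make single members uncertain: 26 mouse members share exon bases with another gene, 7 of them over at least 50% of their exon length, and reads were counted without a strand option. Such overlaps were counted for the mouse table only.

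**Figure D1:**
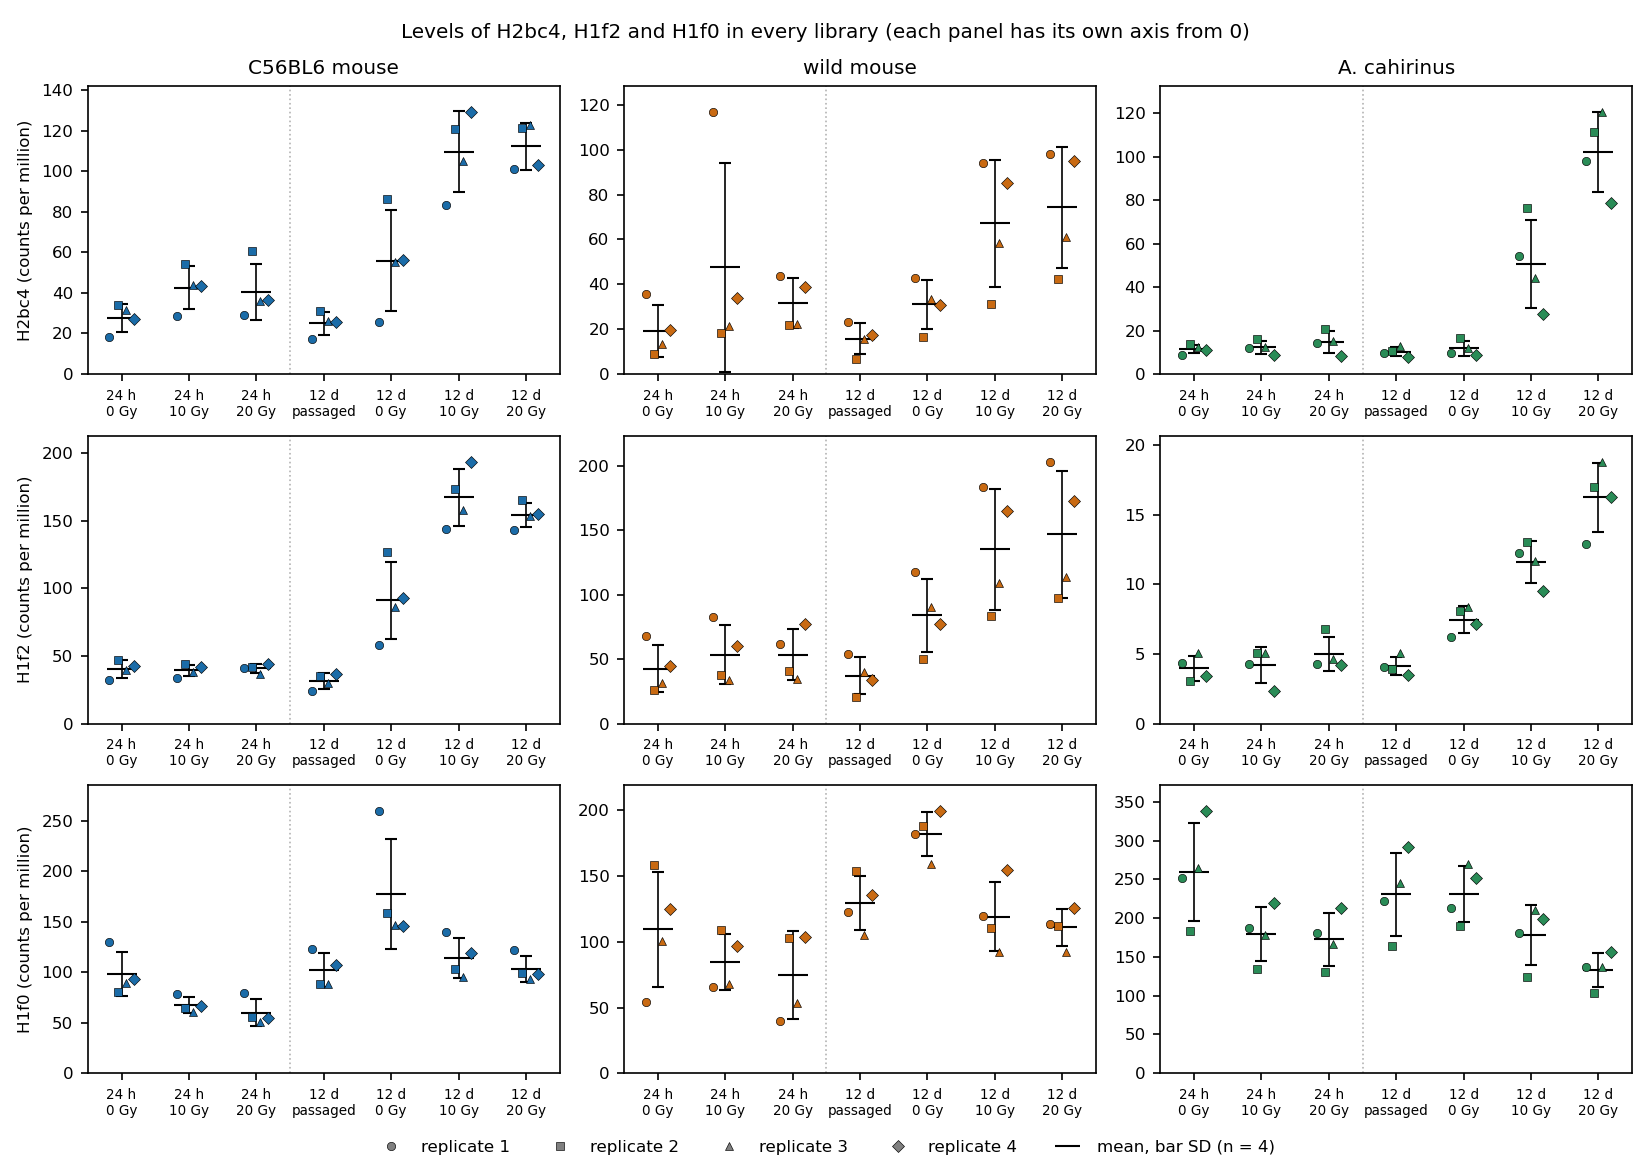
Levels of the leading histone members in every library, in CPM (each panel has its own linear axis from 0), by population, time and dose. Points are the 4 libraries of a group, lines their means and bars their SD. At 12 d H2bc4 and H1f2 sit higher after irradiation than in untreated cells and H1f0 sits lower, and the H2bc4 means in *A. cahirinus* run from 11.7 at 0 Gy to 102.2 at 20 Gy.

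H1f0, the linker histone of resting cells (mouse, chr15:78912650-78914704, plus strand), had the highest level per length of all members and was lower in irradiated cells of each population. In C56BL6 cells at 12 d its levels were 259, 158, 147 and 146 CPM at 0 Gy and 122, 99.4, 93.3 and 98.7 CPM at 20 Gy. The groups did not overlap, and number 1 was the highest library in both. At 20 Gy its log2 level fell by 0.90 with a standard error (SE) of 0.20 (adjusted p = 0.0137, edgeR), and at 10 Gy by 0.76 (adjusted p = 0.0401). Without number 1, the library set with keratinocyte markers, the change at 20 Gy was -0.74 (adjusted p = 0.000513), while without number 2, 3 or 4 the call was lost (adjusted p = 0.0699, 0.0712 and 0.0555), as it was at 10 Gy (0.141, 0.156 and 0.105).

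H1f0 was lower after irradiation in the other populations too. In *A. cahirinus* at 12 d H1f0 was at 213, 190, 270 and 252 CPM at 0 Gy and at 137, 103, 137 and 156 CPM at 20 Gy, without overlap, and the change was -0.80 (adjusted p = 0.00451, SE 0.14). In wild mice at 12 d H1f0 was at 182, 188, 159 and 199 CPM at 0 Gy and at 114, 112, 92.4 and 126 CPM at 20 Gy. The groups again did not overlap, and the log2 change of -0.84 was not called by edgeR without the replicate block (adjusted p = 0.0732). It was called with the block (-0.83, adjusted p = 0.00612), with the block and number 1 set aside (-0.86, adjusted p = 0.0481) and by DESeq2, which was run without the block (-0.84, adjusted p = 2.24e-05). In what follows, with and without the block refer to edgeR. The changes at 20 Gy differed by 0.10 (SE 0.24) between *A. cahirinus* and C56BL6 and by 0.05 (SE 0.20) between *A. cahirinus* and wild mice, neither past the threshold (adjusted p = 0.819 and 0.940). At 10 Gy and 12 d H1f0 changed by -0.78 in wild mice (adjusted p = 0.123, with the block 0.0108, with number 1 also set aside 0.0563, and by DESeq2 0.00390) and by -0.38 in *A. cahirinus* (adjusted p = 0.197, with the block 0.00821).

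At 24 h H1f0 was lower as well, and edgeR with all 4 numbers called it in the blocked fit only. At 20 Gy its log2 change was -0.74 in C56BL6 cells (adjusted p = 0.185, with the block 1.95e-06), -0.58 in wild cells (0.9999, with the block 0.00411) and -0.56 in *A. cahirinus* cells (0.150, with the block 9.42e-05). DESeq2 called it in C56BL6 and *A. cahirinus* cells at 20 Gy (adjusted p = 0.00639 and 0.0414) and in C56BL6 cells at 10 Gy (0.0291). Without C56BL6 number 1 the first of these 20 Gy changes was called in the fit without the block (adjusted p = 0.0232), and without *A. cahirinus* number 2 so was the last (adjusted p = 0.0407). With passage and no irradiation the level was lower in mice. H1f0 fell by 0.81 in C56BL6 cells (adjusted p = 0.0128) and by 0.60 in wild cells (adjusted p = 0.0437) against untreated cells of 12 d that were not labelled passaged, and changed by -0.03 in *A. cahirinus* (adjusted p = 0.917). The C56BL6 call was lost without number 2 or 3 (adjusted p = 0.0587 and 0.0517), and the wild call without number 1, 2 or 4 (0.246, 0.0708 and 0.205). The difference between *A. cahirinus* and C56BL6 in this change was 0.78 (SE 0.28, adjusted p = 0.0489). It was lost without any 1 of the 4 numbers (adjusted p = 0.0779 to 0.143) and without the expression filter (0.05615). With the block it was 0.73 (adjusted p = 0.00259).

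H1f10, the other replication-independent linker histone (chr6:87957403-87958619, minus strand), was scarce in mice and clearer in *A. cahirinus*. In *A. cahirinus* at 24 h it was at 12.5, 6.33, 12.5 and 10.9 CPM at 0 Gy, at 4.41, 3.35, 4.61 and 5.72 CPM at 10 Gy and at 3.50, 3.58, 4.57 and 5.03 CPM at 20 Gy. Every irradiated library lay below every untreated library. It fell by 1.31 at 20 Gy (SE 0.22, adjusted p = 0.0163) and by 1.19 at 10 Gy (adjusted p = 0.0246), and either call was lost without number 1, 3 or 4 (adjusted p = 0.152, 0.182 and 0.0694 at 20 Gy, and 0.227, 0.267 and 0.0798 at 10 Gy). At 12 d and 20 Gy it fell by 1.22 (SE 0.23, adjusted p = 0.00544, without number 3 0.0623). In mice at 12 d and 20 Gy its changes of -0.78 in C56BL6 and -1.21 in wild cells were called with the block (adjusted p = 0.0242 and 0.0357) and neither without it nor by DESeq2 (DESeq2 adjusted p = 0.179 and 0.103), and the wild call was lost with number 1 set aside (0.126). At 24 h its change at 20 Gy was -0.13 in C56BL6 and -0.11 in wild cells, and the difference of *A. cahirinus* from C56BL6 was -1.18 (adjusted p = 0.0821, with the block 0.00255, by DESeq2 0.0161) and from wild mice -1.2 (adjusted p = 0.596, with the block 0.0124).

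H1f2 (H1.2; chr13:23922791-23924350, plus strand) is the replication-dependent linker histone with the highest level per length here, and at 12 d it moved against H1f0. In C56BL6 cells it was at 58.3, 127, 86.2 and 93.2 CPM at 0 Gy, at 144, 174, 158 and 194 CPM at 10 Gy and at 144, 165, 153 and 155 CPM at 20 Gy. Untreated and irradiated libraries did not overlap, and 10 and 20 Gy did. At 20 Gy it rose by 0.64 (adjusted p = 0.0460, SE 0.20) and at 10 Gy by 0.75 (adjusted p = 0.0390). The *A. cahirinus* libraries had 6.22, 8.09, 8.35 and 7.15 CPM at 0 Gy and 12.9, 16.96, 18.8 and 16.3 CPM at 20 Gy, a rise of 1.12 (adjusted p = 0.00112, SE 0.15). In wild cells it was at 118, 49.96, 90.8 and 77.2 CPM at 0 Gy and at 203, 97.6, 114 and 173 CPM at 20 Gy, groups that overlapped, although all 4 pairs were higher. The change of 0.71 was called with the block (adjusted p = 0.0135) and not without it, by DESeq2 or with number 1 also set aside (0.317, 0.177 and 0.0821).

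In untreated passaged cells H1f2 was lower than in untreated cells without that label in all 3 populations. It fell by 1.53 in C56BL6 cells (adjusted p = 0.00153), by 1.23 in wild cells (adjusted p = 0.0482) and by 0.87 in *A. cahirinus* cells (adjusted p = 0.00685). The wild call was lost without any 1 of the 4 numbers (adjusted p = 0.0594 to 0.199). Against passaged cells, H1f2 at 20 Gy was higher by 2.15 in C56BL6, 1.93 in wild and 1.98 in *A. cahirinus* cells (adjusted p = 3.74e-05, 0.0137 and 0.000103).

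H1f4 and H1f3, further replication-dependent linker histones, were much scarcer. In C56BL6 cells at 12 d H1f4 was at 0.371, 1.59, 0.464 and 0.445 CPM at 0 Gy and at 4.44, 6.37, 4.81 and 4.91 CPM at 20 Gy, where number 2 was the highest in both groups, and it rose by 2.73 (adjusted p = 0.00561, SE 0.47). H1f3 went from a mean of 0.426 ± 0.303 CPM (SD, n = 4) to 4.79 ± 0.494 CPM (SD, n = 4) and rose by 3.37 (adjusted p = 0.00245, SE 0.46). Its untreated libraries did not all reach the minimum of the expression filter (0.309 CPM), which decides what is tested. H1f3 was thus tested only because it was high at 20 Gy. In *A. cahirinus* H1f4 rose by 1.91 (adjusted p = 0.0390) and H1f3 by 2.10 (adjusted p = 0.00989, without number 3 0.0623). The filter minimum there was 0.296 CPM, and untreated H1f4 lay at 0.103 to 0.1158 CPM outside number 2. Neither H1f4 nor H1f3 passed in both groups, so their tests depended on the 20 Gy libraries in which they were high. In wild cells the log2 changes of 2.5 and 2.56 were called with the block (adjusted p = 0.00536 and 0.00591), also with number 1 set aside (0.0413 and 0.0403), and by DESeq2 (3.52e-05 and 0.00124), but not by edgeR without the block. H1f9, a testis linker histone, was above 1 CPM only in *A. cahirinus* and changed there by 0.43 at 20 Gy and 12 d (SE 0.47, adjusted p = 0.516).

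**Figure D2:**
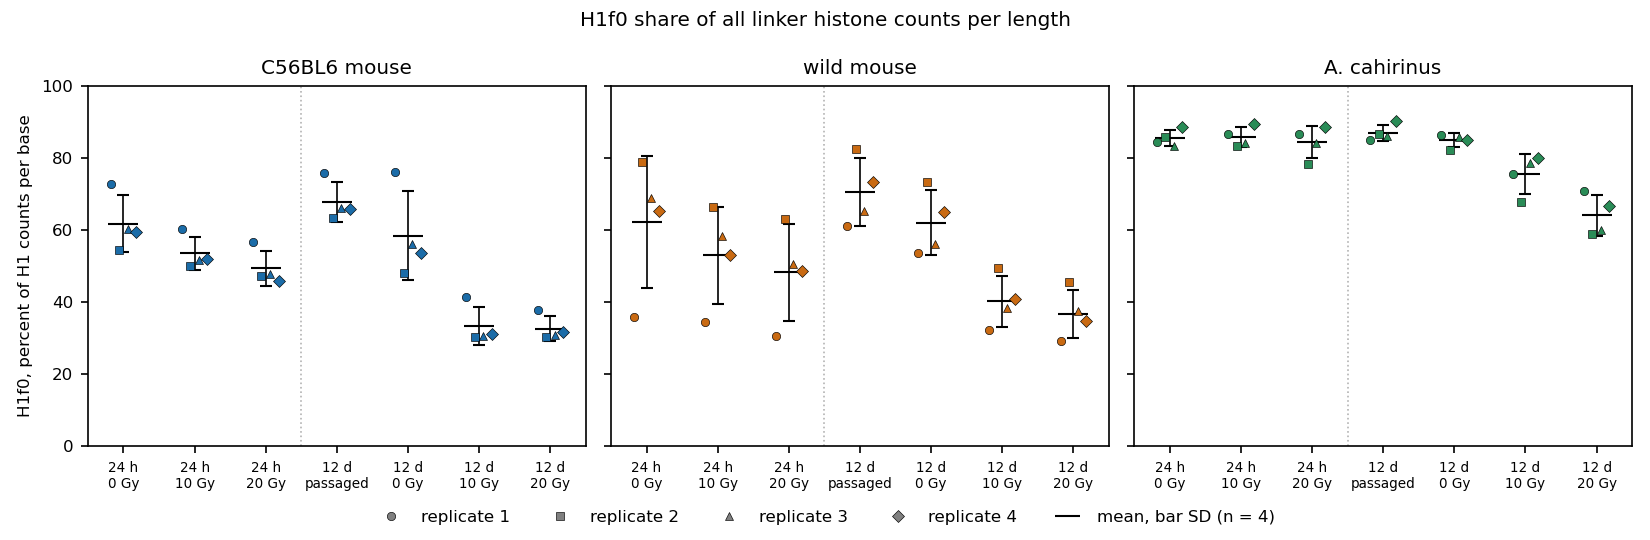
Share of H1f0 in the summed length-scaled counts of all linker histone members, in percent on an axis from 0, by group. Points are the 4 libraries, lines their means and bars their SD. At 12 d the share is lower after irradiation in each population, with means of 58.4% and 32.6% at 0 and 20 Gy in C56BL6 cells, and passaged cells sit highest.

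The opposite moves of H1f0 and H1f2 changed the make-up of linker histone RNA. Per length, H1f0 held 76.1, 47.9, 55.99 and 53.6% of the H1 counts in untreated C56BL6 cells at 12 d and 37.7, 30.3, 30.7 and 31.7% at 20 Gy, without overlap. The means fell from 61.99 ± 9.01% to 36.7 ± 6.78% in wild cells and from 84.9 ± 1.94% to 64.04 ± 5.68% in *A. cahirinus* (SD, n = 4 each), also without overlap. In passaged cells the mean share was 67.9%, 70.5% and 87.0% in the same order of populations. At 24 h and 20 Gy it was 49.4%, 48.2% and 84.4%, against 61.7%, 62.2% and 85.5% at 0 Gy. No test was run on these shares, which reuse the counts tested above. The deposited lengths of linker histone genes differ between mouse and *A. cahirinus*, so the shares can be compared within a population and not across the tables.

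H2bc4 (chr13:23868182-23876891, plus strand, counted over 1156 bases of exon), an H2B gene, was the core histone member with the highest level per length, and its rise in *A. cahirinus* was the clearest difference between populations. In *A. cahirinus* at 12 d it was at 9.68, 16.6, 11.9 and 8.83 CPM at 0 Gy, at 54.2, 76.3, 44.4 and 27.4 CPM at 10 Gy and at 98.1, 112, 121 and 78.6 CPM at 20 Gy. The 3 doses did not overlap. It rose 8.68-fold at 20 Gy, a log2 change of 3.12 (adjusted p = 0.000163, SE 0.24), and by 2.12 at 10 Gy (SE 0.36, adjusted p = 0.0366). The call at 10 Gy was lost without number 1, 3 or 4 (adjusted p = 0.316, 0.214 and 0.159). Between 10 and 20 Gy the step of 1.01 was not called (adjusted p = 0.187) by edgeR without the block. It was called with the block (1.09, adjusted p = 0.00334), by DESeq2 (1.03, adjusted p = 0.0432) and without number 2 (1.23, adjusted p = 0.0178).

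In mice H2bc4 changed by less. C56BL6 cells at 12 d had 25.8, 86.5, 55.02 and 56.4 CPM at 0 Gy and 101.2, 122, 123 and 103 CPM at 20 Gy, without overlap, and the change of 0.89 (SE 0.31) was not called without the block (adjusted p = 0.0620) and was called with it (0.0100) and by DESeq2 (0.0148). Wild cells had 43, 16.5, 33.7 and 30.9 CPM at 0 Gy and 98.3, 42.5, 61.3 and 95.04 CPM at 20 Gy. Number 2 was the lowest in both wild groups and at 20 Gy lay below the highest untreated library, and the change of 1.17 was likewise not called without the block (adjusted p = 0.171) and was called with it (0.00392), with number 1 also set aside (0.0310) and by DESeq2 (0.0137). The rise at 20 Gy was larger in *A. cahirinus* than in C56BL6 cells by a log2 difference of 2.23 (adjusted p = 0.00262, SE 0.41, and without number 3 2.21 and 0.0514) and larger than in wild cells by 1.96 (SE 0.40, adjusted p = 0.0230). The second difference was lost without number 1, 3 or 4 (adjusted p = 0.240, 0.135 and 0.147), and was 2 with the block (adjusted p = 0.000183) and 1.99 with wild number 1 set aside (adjusted p = 0.00114). H2bc4 was counted over 1156 bases in mouse and 753 in *A. cahirinus*, and whether these cover the same part of the transcript was not tested. Wild mice and C56BL6 mice differed by 0.28 (SE 0.46, adjusted p = 1). At 24 h and 20 Gy the changes of H2bc4 were 0.51, 0.68 and 0.39 in C56BL6, wild and *A. cahirinus* cells, the first and second called with the block (adjusted p = 0.00149 and 0.00411) and the third not (0.151).

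With passage and no irradiation H2bc4 was lower in mice. It fell by 1.16 in C56BL6 cells (SE 0.34, adjusted p = 0.0220, lost without number 2, 3 or 4 at 0.0633, 0.0932 and 0.0927), changed by -1.03 in wild cells (adjusted p = 0.119, with the block 0.00473, with number 1 also set aside 0.0296, by DESeq2 0.0424) and by -0.23 in *A. cahirinus* cells (adjusted p = 0.519). At 20 Gy against passaged cells it was higher by 2.03, 2.19 and 3.33 in C56BL6, wild and *A. cahirinus* cells (adjusted p = 0.000128, 0.0156 and 2.78e-05), and the wild call was lost without number 1 or 4 (adjusted p = 0.0935 and 0.1204).

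H2bc6, another H2B gene (chr13:23767653-23805107, minus strand), was higher after irradiation in all populations. At 12 d it was at 0.573, 2.23, 1.55 and 1.43 CPM at 0 Gy and at 10.4, 12.7, 10.2 and 11.3 CPM at 20 Gy in C56BL6 cells, and it rose by 2.83 (adjusted p = 0.00190, SE 0.35). In *A. cahirinus* cells the levels were 0.0687, 0.263, 0.0704 and 0.174 CPM and then 1.11, 1.41, 1.93 and 1.45 CPM, a rise of 3.28 (adjusted p = 0.00112, SE 0.43). The filter minimum there was 0.296 CPM, so H2bc6 was tested only through the 20 Gy libraries. In wild cells it was at 1.69, 0.702, 0.729 and 1.195 CPM and then at 10.6, 4.604, 3.67 and 9.51 CPM. Treated and untreated libraries did not overlap in any population, and the wild change of 2.60 was not called without the block (adjusted p = 0.0722) and was called with it (0.00238), with number 1 also set aside (0.0265) and by DESeq2 (2.71e-06). Its exons overlap those of H1f4 and Gm11398 on the same strand over 11.2% of their length.

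Further core histone members at low levels were also higher after irradiation. The number of genes with any count moved with them at 12 d: it was 20618 to 21453 at 0 Gy and 24466 to 25727 at 20 Gy in C56BL6 libraries, 19278 to 20667 and 21873 to 24882 in wild ones and 14921 to 15222 and 15856 to 16209 in *A. cahirinus*, without overlap, and its part in the histone changes was not tested. H2ac6, an H2A gene that starts 250 bases from H2bc4 on the opposite strand, was at 0.101, 0.990, 0.495 and 0.413 CPM in untreated C56BL6 cells at 12 d and at 4.37, 4.62, 3.75 and 4.07 CPM at 20 Gy, and rose by 2.95 (SE 0.52, adjusted p = 0.00568, without number 3 or 4 0.0562 and 0.0503). H4c8 rose by 3.15 in C56BL6 (adjusted p = 0.00580, without number 3 0.0555), with means of 0.318 and 3.08 CPM, and by 2.90 in *A. cahirinus* (adjusted p = 0.00284), with means of 0.193 and 1.499 CPM. H3c2 rose by 3.17 in C56BL6 cells (adjusted p = 0.00511), from a mean of 0.230 to 2.29 CPM. The filter minimum in this C56BL6 comparison was 0.309 CPM. H2ac6 lay below it in untreated number 1 and H3c2 by its untreated mean, so both were tested only because they were high at 20 Gy. The untreated mean of H4c8 in *A. cahirinus* also lay below the minimum there (0.296 CPM). In C56BL6 cells the untreated mean of H4c8 (0.318 CPM) lay just above the minimum, which does not show that H4c8 passed it in both groups. At 10 Gy in C56BL6 cells H1f3 rose by 3.25, H3c2 by 3.11, H4c8 by 2.87 and H2ac6 and H2bc6 by 2.54 each (adjusted p = 0.00427, 0.00466, 0.00839, 0.0127 and 0.00454). The minimum there was 0.333 CPM, and H1f3, H3c2, H4c8 and H2ac6 passed it only through the 10 Gy libraries. Without number 3 the adjusted p was 0.0613 for H1f3, 0.0807 for H4c8, 0.1103 for H2ac6 and 0.0599 for H2bc6. Without number 4 it was 0.0567 for H4c8 and 0.0853 for H2ac6, and without number 2 0.0563 for H4c8. In wild cells at 20 Gy H2ac6 and H4c8 rose by 2.59 and 2.72 with the block (adjusted p = 0.00662 and 0.00784) and were called by DESeq2 too (0.00403 and 0.000930). They were not called without the block (0.135 and 0.0933) or with the block and number 1 set aside (0.0556 each). Untreated wild number 2 had 0.07017 CPM of H2ac6, below the filter minimum of 0.341 CPM, so H2ac6 passed through the 20 Gy libraries only.

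H4c9 rose by 2.24 in C56BL6 cells (adjusted p = 0.00396), from 0.915 ± 0.418 to 4.69 ± 0.539 CPM (SD, n = 4). In wild cells its values at 20 Gy were 11.3, 2.82, 2.01 and 13.2 CPM and at 0 Gy 2.07, 0.351, 0.696 and 1.06 CPM, so that numbers 1 and 4 were high and numbers 2 and 3 low, and the change of 2.71 was not called without the block (adjusted p = 0.179) and was called with it (0.00643), with number 1 also set aside (0.0477) and by DESeq2 (0.00540). H3c15 changed by 1.38 in C56BL6 cells (SE 0.62, adjusted p = 0.131, with the block 0.0131). H2bc21, which has no stem-loop match, rose by 0.75 in C56BL6 (adjusted p = 0.0183), from 2.81 ± 0.506 to 5.15 ± 0.547 CPM (SD, n = 4), and changed by 0.40 in wild cells (adjusted p = 0.727) and by 0.09 in *A. cahirinus* (adjusted p = 0.861).

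**Figure D3:**
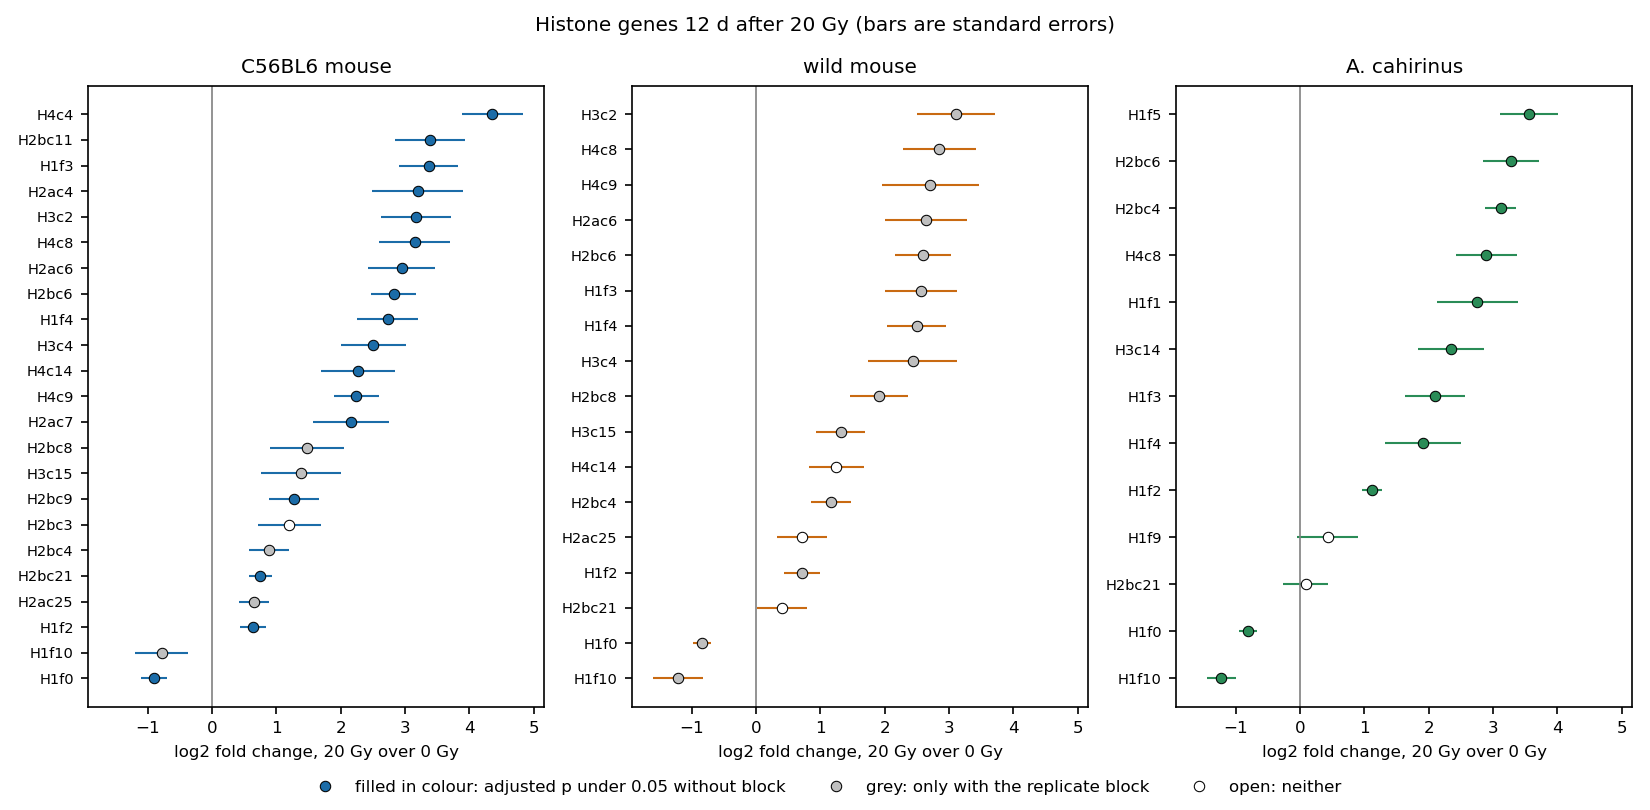
Log2 change of each tested member at 12 d, 20 Gy against 0 Gy, in the 3 populations; points are fitted changes, bars their standard errors coloured points the calls of edgeR without the replicate block, grey points those of edgeR with the block only (DESeq2 is not drawn) and open points neither. Members with a group mean of 0, such as H4c3 in C56BL6 cells, are left out, and all drawn members except H1f0 and H1f10 sit above 0.

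The counts of called members at 12 d depend on the expression filter, since many members passed it only through the irradiated libraries in which they were high. At 20 Gy in C56BL6 cells 17 of 24 tested members rose and 1, H1f0, fell, where 13% of all genes tested rose and 13.6% fell. Of the 24, 15 passed the filter only through the 20 Gy libraries, and of the 9 that passed in both groups 5 rose and 1 fell. Without number 1, 2, 3 or 4 in turn, 23, 13, 6 and 10 members were called. At 10 Gy 11 of 19 rose and 1 fell (10.3% and 10.6% of all genes), 10 having passed through the irradiated libraries only, and 16, 8, 1 and 5 were called without each number in turn. Between 10 and 20 Gy 0 of 28 were called by edgeR, with and without the block, and by DESeq2 (0% of all genes and, with the block, 0.297%), and 2 had an unadjusted p under 0.05 without the block.

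In *A. cahirinus* at 12 d and 20 Gy 9 of 13 tested members rose and 2, H1f0 and H1f10, fell, where 13.8% of all genes rose and 18.1% fell. Of the 5 that passed the filter in both groups 2 rose and 2 fell, and 6 passed through 20 Gy only. At 10 Gy 3 of 10 rose and 0 fell (1.29% and 1.58% of all genes), with the block 6 rose and 2 fell (14.2% and 13.4%), and leaving out a number gave 0 to 5 calls. Between 10 and 20 Gy 0 of 15 were called by edgeR (0.457% of all genes) and 1 by DESeq2, with 6 at an unadjusted p under 0.05, and with the block 3 were higher and 1 lower at 20 Gy (8.26% and 9.62%).

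In wild mice at 12 d edgeR and DESeq2 gave different counts. Without the block edgeR called 0 of 17 members at 20 Gy (0.0694% of all genes) and 0 of 16 at 10 Gy (0.264%), although 15 and 14 had an unadjusted p under 0.05 and DESeq2 called 12 and 9. With the block 12 rose and 2 fell at either dose, where 7.66% of all genes rose and 7.79% fell at 20 Gy, and 5.96% and 6.72% at 10 Gy. Of the 17 and 16, 8 and 7 had passed the filter only through the irradiated libraries, and of the 9 and 8 that passed in both groups 5 and 6 rose and 2 and 1 fell with the block. With number 1 set aside in addition, 5 rose and 1 fell at 20 Gy, and 3 rose and 0 fell at 10 Gy. No share of all genes was counted for DESeq2 or with number 1 set aside, so those counts of members have no background to be read against. Between 10 and 20 Gy 0 of 21 were called by edgeR, with the block too, and by DESeq2 (0% and, with the block, 0.257% of all genes), and 0 had an unadjusted p under 0.05 without the block.

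At 24 h few members were called without the block. Without the block edgeR called 0 of 18 members in C56BL6 cells at 20 Gy and 0 of 18 at 10 Gy (0.0895% and 0.007% of all genes), with 4 and 5 at an unadjusted p under 0.05 and 1 called by DESeq2 at each dose. With the block 4 rose and 1 fell at 20 Gy (8.2% and 9.45%), and 3 rose and 1 fell at 10 Gy (5.42% and 6.11%). H2bc6 rose by 0.99 at either dose in that fit (adjusted p = 0.000421 and 0.00289), and H2bc4 by 0.50 and 0.60 at 20 and 10 Gy (adjusted p = 0.00149 and 0.000163).

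In wild cells at 24 h 0 of 17 and 0 of 16 were called at 20 and 10 Gy by edgeR and by DESeq2 (0% of all genes at either dose), with 0 and 2 at an unadjusted p under 0.05. With the block 6 rose and 1 fell at 20 Gy (7.36% and 5.19%), and 0 were called at 10 Gy (0%). H1f3 rose by 1.17, H1f4 by 1.02 and H2bc6 by 0.99 at 20 Gy in the blocked fit (adjusted p = 0.0273, 0.0247 and 0.0147). The wild 10 Gy library of number 1 stood apart at 24 h, with the fewest genes detected of all mouse libraries (17843), 117 CPM of H2bc4 against 18.2 to 34.01 CPM in the other 3, and 7.75 CPM of H1f10 against 1.52 to 2.46 CPM. In *A. cahirinus* at 24 h 1 of 9 members at 20 Gy and 1 of 11 at 10 Gy fell, H1f10 each time, and 0 rose (2.7% and 3.1% of all genes fell, and 0.89% and 0.634% rose). Leaving out a number gave 0 to 2 calls at either dose, and with the block 2 and 3 fell and 0 rose (10.8% and 12.4% of all genes fell, and 13.3% and 15.2% rose).

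**Figure D4:**
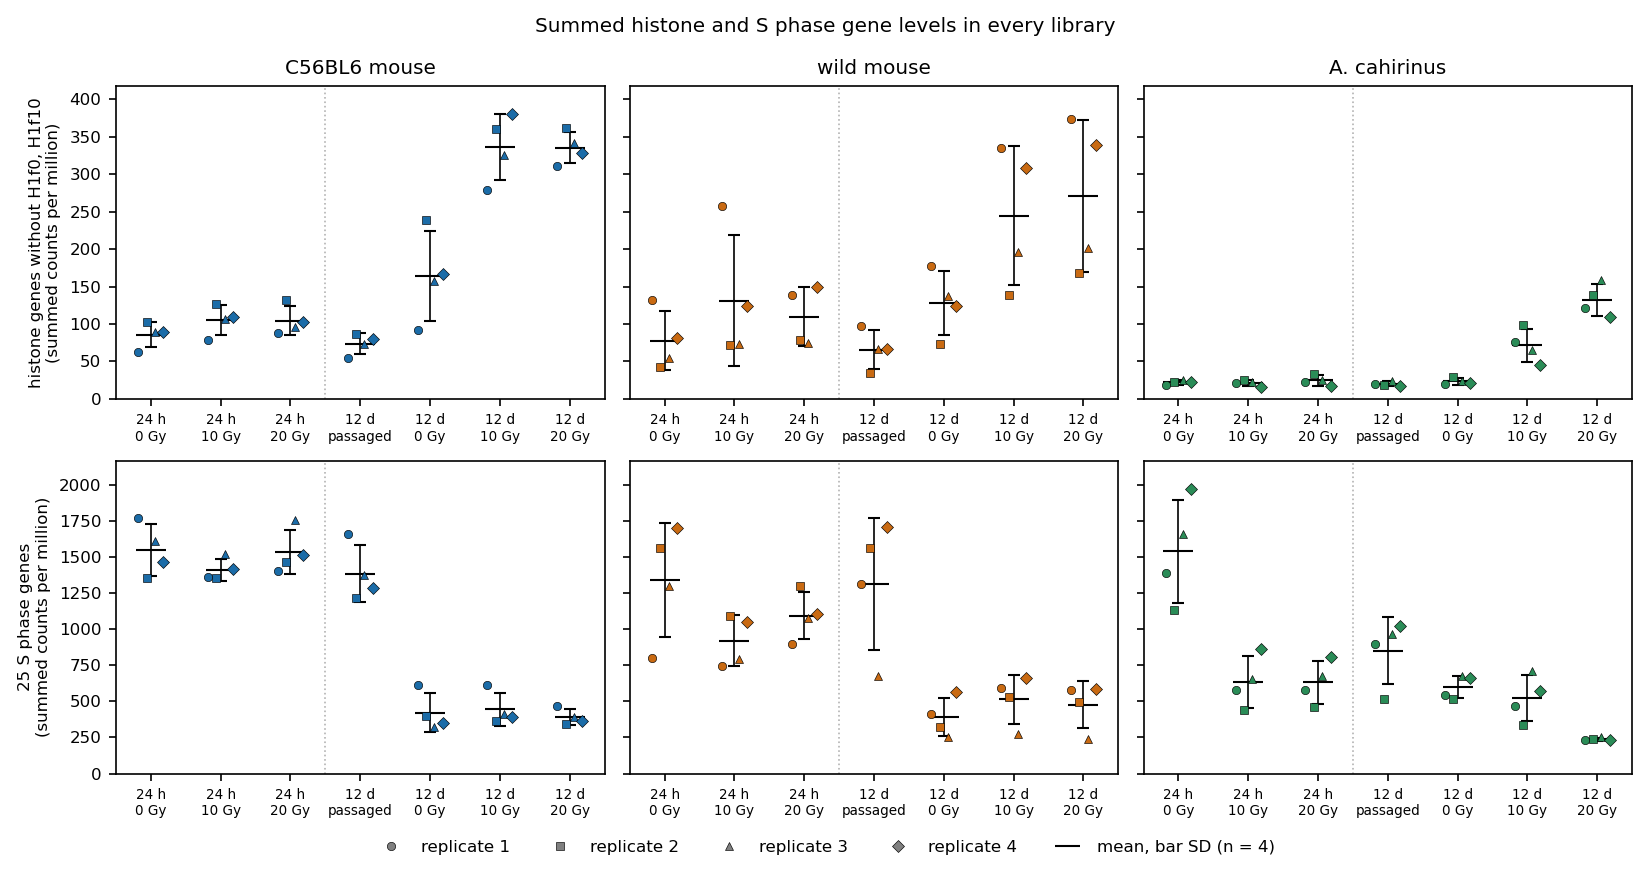
Summed level of all members without H1f0 and H1f10 (upper row) and of 25 S-phase genes (lower row) in every library, by population, time and dose. Axes are linear in CPM from 0, points are libraries, lines means and bars SD. In the upper row at 12 d the C56BL6 means are 164 at 0 Gy, 336 at 20 Gy and 73.6 in passaged cells, and the *A. cahirinus* means are 23.3, 132 and 20.3.

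Summed over the members without H1f0 and H1f10, untreated cells at 12 d held 92.4, 239, 158 and 167 CPM in C56BL6, 178, 73.6, 138 and 123 CPM in wild and 19.3, 29.1, 23.5 and 21.3 CPM in *A. cahirinus* mice. At 20 Gy the sums were 311, 361, 341 and 328 CPM, 374, 168, 202 and 339 CPM, and 121, 139, 159 and 109 CPM. C56BL6 and *A. cahirinus* groups did not overlap, and wild number 2 at 20 Gy (168 CPM) lay below the highest untreated wild library (178 CPM). Without H1f2 and H2bc4 the C56BL6 means were 16.9 at 0 Gy and 69 CPM at 20 Gy, and the *A. cahirinus* means 4.09 and 13.5 CPM. In bulk samples fewer cells with a transcript and less transcript per cell cannot be told apart.

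At 12 d the mean sum without H1f0 and H1f10 was lowest in untreated passaged cells in each population (73.6, 65.8 and 20.3 CPM in C56BL6, wild and *A. cahirinus* cells). Against untreated cells of 12 d without that label, 1 member rose (H3c2, by 1.11, adjusted p = 0.0374) and 4 fell in C56BL6 cells of 17 tested, where 24.2% of all genes rose and 25.5% fell. The 4 were H1f2, H2bc4, H1f0 and H2ac25, an H2A gene of chromosome 11 that fell by 0.73 (adjusted p = 0.0457, without number 2, 3 or 4 0.103, 0.174 and 0.202). With the block 5 rose and 5 fell (29.3% and 30.8%), and leaving out a number gave 1 to 7 calls. In wild cells 0 rose and 2 of 14 fell (5.51% and 5.2%), with the block 0 and 5 (15.1% and 16.8%), and leaving out a number gave 0 to 1 calls. In *A. cahirinus* 0 rose and 1 of 6 fell, H1f2 (12.1% and 13.6%). The share of tested members that fell was 23.5% in C56BL6, 14.3% in wild (with the block 35.7%) and 16.7% in *A. cahirinus* cells, to be read against the shares of all genes just given, over 17, 14 and 6 members.

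Cells at 20 Gy were also set against passaged cells. In C56BL6 cells 20 of 25 members were higher and 1, H1f10, lower (20.4% and 21.2% of all genes), and of the 13 that passed the filter in both groups 11 were higher and 1 lower. H3c15, an H3 gene, was higher by 2.91, H2ac6 by 2.71, H1f4 by 2.64, H4c8 by 2.97 and H2bc6 by 2.21 (adjusted p = 0.000832, 0.000394, 0.000153, 0.00378 and 0.000396). H1f10 was lower by 1.58 (log2 change -1.58, adjusted p = 0.0110, without number 3 or 4 0.0564 and 0.0702). In *A. cahirinus* 8 of 12 were higher and 2, H1f0 and H1f10, lower (19.5% and 23%), 3 and 2 among the 6 that passed in both groups, and leaving out a number gave 6 to 12 calls. In wild cells 8 of 17 were higher and 0 lower (4.39% and 6.1%), with 0, 3, 9 and 0 called without number 1, 2, 3 and 4, and with the block 15 were higher and 1 lower (19.7% and 18.3%), as also with number 1 set aside. In the wild comparison H2ac6 was higher by 2.4, H1f4 by 2.34, H3c15 by 2.33 and H2bc6 by 2.08 (adjusted p = 0.0434, 0.0190, 0.0121 and 0.0347). Without number 1 or 4 none of these 4 was called (adjusted p = 0.0855 to 0.236), and H1f4, H2bc6 and H2ac6 were lost without number 2 too (adjusted p = 0.0742, 0.0825 and 0.0754), H2ac6 also without number 3 (0.0783).

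Tests of the difference between populations called few members. For 20 Gy at 12 d 1 of 27 changed more in *A. cahirinus* than in C56BL6 cells, H2bc4, and 1 less, H4c4, where 8.11% and 10.7% of all genes did. H4c4, an H4 gene named after its values were seen, had means of 0.0568 and 1.35 CPM at 0 and 20 Gy in C56BL6 and of 0.109 and 0.183 CPM in *A. cahirinus* cells, levels near the floor of 3 counts in all groups but one. Against wild cells 1 of 20, H2bc4, changed more and 0 less (1.17% and 2.18%). With the block these were 2 and 1 (17.6% and 20.4%), and 2 and 0 (10.2% and 13.1%), the latter 1 and 0 with wild number 1 set aside. At 24 h 0 of 21 and 0 of 19 differed from C56BL6 and wild cells in the fit without the block (2.09% and 0% of all genes), with 3 and 4 at an unadjusted p under 0.05 and 1 and 0 called by DESeq2, and with the block 3 and 2 were lower and 0 higher in *A. cahirinus* (7.98% and 4.34% of all genes lower, 8.8% and 2.92% higher). In the change with passage 1 of 17 differed from C56BL6, H1f0, and 0 of 14 from wild mice (13.4% of all genes higher and 14.3% lower, and 3.46% called in either direction), with the block 3 and 2, all higher (21.6% and 11.5% of all genes higher, 23.7% and 12.3% lower). Of the 14, 1 had an unadjusted p under 0.05, and DESeq2 called 0.

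Wild and C56BL6 mice were not told apart by these genes. In untreated cells 0 of 16 members at 24 h and 0 of 15 at 12 d were called by edgeR and by DESeq2 (5.7% and 2.93% of all genes), with 0 and 1 at an unadjusted p under 0.05. For the change at 20 Gy 0 of 20 members at 24 h and 0 of 26 at 12 d differed, and for the change with passage 0 of 17 (0%, 0% and 0.0131% of all genes), with 0 at an unadjusted p under 0.05 in each and 0 called by DESeq2. With the block the counts were also 0, against 0.647%, 0.101% and 4.02% of all genes. A p that misses the threshold does not show that the values were the same.

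**Figure D5:**
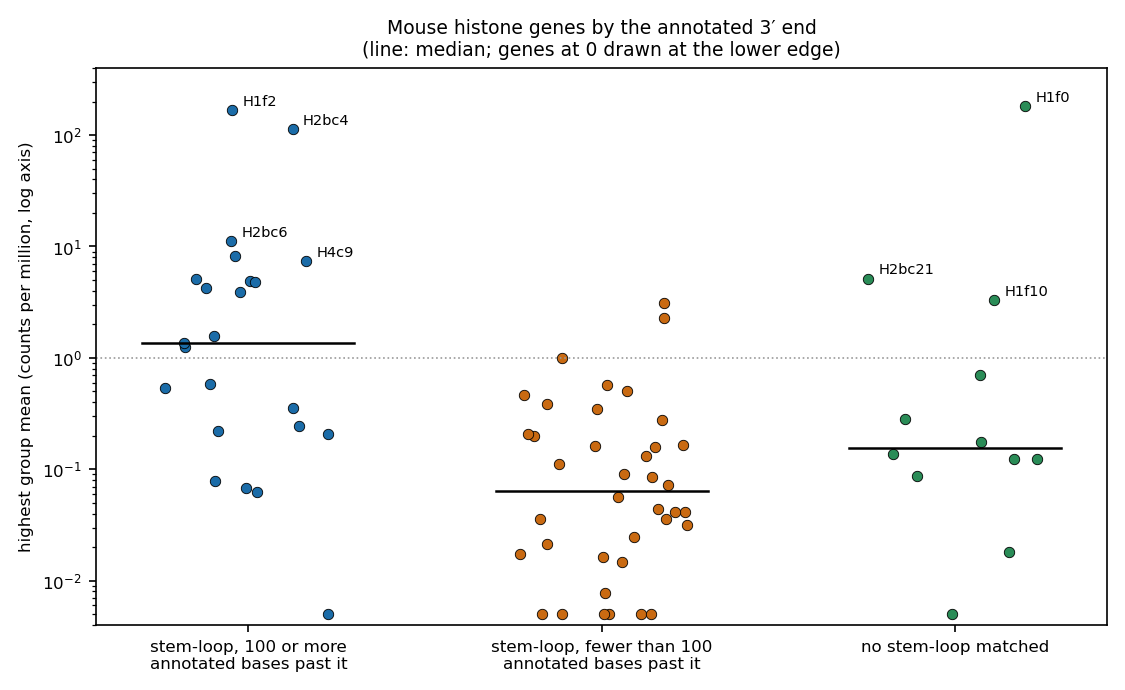
Highest group mean of each mouse member, in CPM on a log axis with genes at 0 drawn at the lower edge, by whether its stem-loop has at least 100 annotated exon bases past it, fewer, or no match; each point is a gene. Of the 23 members with the longer annotation 13 reach 1 CPM, against 2 of 38 with a shorter one.

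The level of a member in these libraries went with what the annotation holds past its stem-loop. In mice 23 members had at least 100 annotated exon bases past it, and 13 of them reached a group mean of 1 CPM, with a median highest group mean of 1.35 CPM. Of 38 with fewer bases 2 reached it, with a median of 0.0643 CPM, and of the 12 with no match 3 reached it. Of the 3 classes 15, 6 and 3 members were tested at 20 Gy and 12 d in C56BL6 cells, of which 11, 5 and 1 rose, where 13% of all genes tested rose. Of all 24 tested, 15 passed the filter only through the 20 Gy libraries in which they were high. The rises per class are therefore no support for the split. The limit of 100 bases was chosen with the levels known, and a longer annotation also catches more reads, so the split is a description. H2bc4 is the extreme case: its stem-loop falls between its deposited exons, and a second exon of 733 bases (chr13:23876159-23876891) lies past it. Long stretches past a stem-loop within an exon were those of H1f3 (4884 bases), H4c16 (2445) and H2ac6 (2010), and H1f2 had 840. For H2bc6 and H3c14 overlapping exon entries were counted more than once, so their lengths are not given. Both are in the class with at least 100 bases. H4c16 had a highest group mean of 0.206 CPM and H3c14 had 0 counts in every mouse library, against the pattern.

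Promoter sequence before the starts of RefSeq is shown for 3 members with different behaviour, from the RefSeq table built on GRCm38.p6, each run found once in GRCm39. H1f0 fell, H1f2 rose from a high level, and H2ac6 rose from a low level and lies head to head with H2bc4, whose deposited start is inside its window. Each run is the 250 bases before RefSeq's start, 5′ to 3′ on the gene's strand, and capitals mark the motifs searched on both strands. They were TATAAA as the TATA box, CCAAT as the box of that name, ATTTGCAT as the octamer and AAACACA as an element of linker histone promoters.
H1f0: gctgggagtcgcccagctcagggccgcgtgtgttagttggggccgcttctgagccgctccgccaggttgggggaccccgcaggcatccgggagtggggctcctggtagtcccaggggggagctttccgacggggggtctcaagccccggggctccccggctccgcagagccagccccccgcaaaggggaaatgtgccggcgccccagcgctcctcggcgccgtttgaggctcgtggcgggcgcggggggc
H1f2: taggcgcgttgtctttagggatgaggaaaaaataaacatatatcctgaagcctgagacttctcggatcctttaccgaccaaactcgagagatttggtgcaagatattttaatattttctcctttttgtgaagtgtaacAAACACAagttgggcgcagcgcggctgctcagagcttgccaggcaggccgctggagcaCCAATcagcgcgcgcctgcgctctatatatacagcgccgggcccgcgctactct
H2ac6: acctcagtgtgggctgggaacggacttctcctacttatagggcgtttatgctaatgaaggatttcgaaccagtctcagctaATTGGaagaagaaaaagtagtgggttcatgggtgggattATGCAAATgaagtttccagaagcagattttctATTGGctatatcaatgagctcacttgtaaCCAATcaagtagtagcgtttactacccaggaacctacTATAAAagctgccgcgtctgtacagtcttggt
In GRCm39 they lie at chr15:78912162-78912411 on the plus strand, chr13:23922540-23922789 on the plus strand and chr13:23867943-23868192 on the minus strand. The start of H1f0 in RefSeq lies upstream of its deposited start (chr15:78912650), so the bases directly before the deposited start are not in its run. H1f0 held 0 matches in this run, H1f2 2 and H2ac6 5, among them the octamer ATTTGCAT on the opposite strand. Over 300 bases from 250 before to 50 after the start, 82.5% of 63 promoters of 62 members held CCAAT, 54% TATAAA, 20.6% ATTTGCAT and 14.3% AAACACA, against 37.4%, 13.6%, 1.74% and 7.18% of all 32851 promoters in the table. CCAAT was in 100% of the H2A, H2B and H3 promoters and in 27.3% of the H4 promoters, and the octamer was in 35.3% of the H2A, 46.7% of the H2B and none of the other promoters. Matches describe letters and not bound sites. Of 14 pairs of members that start within 1000 bases of each other on opposite strands, 1 had both genes tested at 20 Gy and 12 d in C56BL6 cells, H2ac6, which rose, and H2bc4, which was not called.

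Genes that work with histones were followed as 4 lists: 25 S-phase genes, histone message transcription and 3′ processing, histone chaperones and supply, and replacement histones, the variants made outside S phase. The S-phase genes had a summed level of 421 CPM in untreated C56BL6 cells at 12 d, 392 CPM at 20 Gy and 1386 CPM in passaged cells. In wild cells the sums were 389, 476 and 1315 CPM, and in *A. cahirinus* 600, 238 and 853 CPM. Among the 12 d groups the highest S-phase levels were thus in the passaged cells, and the highest summed levels of members without H1f0 and H1f10 in the irradiated cells. Untreated cells at 24 h, in the other batch, had S-phase sums of 1550, 1341 and 1540 CPM in C56BL6, wild and *A. cahirinus* cells. With passage all 25 S-phase genes rose in C56BL6 cells (24.2% of all genes). In wild cells 17 rose (5.51%), and with the block 25 (15.1%). In *A. cahirinus* cells 7 rose (12.1%), and with the block 18, a fit for which no share of all genes is given here. At 20 Gy and 12 d 24 of 25 fell in *A. cahirinus* (18.1% of all genes), where Ccna2, cyclin A2, fell by 4.27 (adjusted p = 4.58e-05). In C56BL6 cells 3 fell (13.6% of all genes), and with the block 9 fell and 1 rose, without a share given here. In wild cells 0 were called (0.0694%), and with the block 2 rose and 2 fell (7.66% and 7.79%). The part of the S-phase genes in the histone changes was not tested.

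Genes that make or process histone messages are given for 12 d and 20 Gy. Of 23 genes of transcription and 3′ processing 5 rose and 1 fell in C56BL6 cells (13% and 13.6% of all genes), 0 were called in wild cells with or without the block, and 1 rose and 5 fell in *A. cahirinus* (13.8% and 18.1% of all genes). With the block 3 rose and 8 fell in *A. cahirinus*, a fit for which no share of all genes is given here. Tent4b, a non-canonical polyA polymerase, rose by 0.49 in C56BL6 (adjusted p = 0.0167) and by 0.30 in *A. cahirinus* (adjusted p = 0.0191), and Sympk, a scaffold of the cleavage complex, rose by 0.42 in C56BL6 (adjusted p = 0.00245). Lsm10, of the U7 particle that cuts histone messages, fell by 0.33 in C56BL6 (adjusted p = 0.0298), and Lsm11, of the same particle, fell by 0.44 in *A. cahirinus* (adjusted p = 0.00830), where E2f1 fell by 1.03 (adjusted p = 0.00374). Slbp itself was at 19.1 ± 3.02 and 16.1 ± 1.61 CPM at 0 and 20 Gy in C56BL6, at 13.9 ± 2.05 and 13.3 ± 0.910 CPM in wild and at 21.97 ± 1.79 and 18.1 ± 1.14 CPM in *A. cahirinus* cells (SD, n = 4 each). At 24 h it fell by 0.78 in *A. cahirinus* (adjusted p = 0.0131). Npat, the coactivator of histone gene transcription, had means of 29.1 and 30.3 CPM, 27.8 and 30.1 CPM, and 54.9 and 53.9 CPM in the same order.

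Of 26 chaperone and supply genes at 12 d and 20 Gy 16 fell and 0 rose in *A. cahirinus* (18.1% and 13.8% of all genes), and 4 fell and 1 rose in C56BL6 (13.6% and 13%). In wild cells 0 were called (0.0694%), and with the block 1 rose (7.66%). Asf1b, a chaperone of H3 and H4, fell by 1.89 (adjusted p = 0.00327) and Hjurp, which loads the centromeric variant, by 4.49 (adjusted p = 0.000245) in *A. cahirinus*, and Hat1, which acetylates new H4, fell by 0.43 in C56BL6 (adjusted p = 0.0340). Ipo7, an importin, rose by 0.71 in C56BL6 cells (adjusted p = 0.0132). Of the replacement histones 4 of 9 fell and 1 rose in C56BL6 (13.6% and 13% of all genes). With the block 6 fell and 1 rose there, without a share given here. In wild cells 0 of 9 were called (0.0694%), and with the block 4 fell and 1 rose (7.79% and 7.66%). In *A. cahirinus* 6 of 8 fell (18.1%). H2az2 fell by 1.12 in C56BL6 (adjusted p = 0.000957) and by 1.16 in *A. cahirinus* (adjusted p = 0.000992), Macroh2a2 by 1.18 in C56BL6 (adjusted p = 0.00215) and Cenpa, the centromeric H3, by 2.96 in *A. cahirinus* (adjusted p = 0.00225). H2aj, an H2A variant, rose by 0.96 in C56BL6 cells (adjusted p = 0.00124), and by 0.91 in wild cells with the block (adjusted p = 0.0409).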

How the data were processed

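Reads were processed by the authors. Per the submitters' processing notes they used Trim Galore, HISAT2 and featureCounts with GRCm39, and no version is given there. The deposited values are raw counts per gene made by the authors with featureCounts 2.0.3, per the file headers, for the mouse table against GRCm39 with Ensembl release 108 and for *A. cahirinus* against AcoCah2 by gene name. The recorded commands name no option for strand, multiply mapped reads or overlapping genes, which matters for near-identical and overlapping histone genes. Gene lengths, other values deposited by the authors in bases, served only for levels per kb. All count columns were assigned to libraries.

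Counts were tested with edgeR 4.0.16 in R 4.3.3 (filterByExpr, TMM, quasi-likelihood test, Benjamini-Hochberg over all genes tested, threshold 0.05, 8 libraries per comparison within a population). Differences between populations were interaction terms over symbols found once in each table. Replicate numbers carry 1 animal code within a population in the library names, so they pair libraries; same-numbered libraries correlated at 0.55 to 0.93 on average over 21 comparisons (lowest pair 0.41), other numbers at -0.30 to -0.11. The block on that number was an alternative, as were RLE scaling, no filter, DESeq2 1.42.0 and leaving out each number. A robust empirical Bayes fit and setting aside wild number 1 at 12 d were chosen after seeing the data. The test was also run on simulated counts in which only genes above a minimum mean count were changed. Results of that run are not given here, and it does not cover members near the floor. Replicate pairs differed by 7.95 to 573 times sampling noise. The 3-count floor covers counting error only, and p-values measure the spread between these libraries.

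Members and lists were chosen with earlier results of these data known. Named genes were a panel (H1f0, H1f10, H1f2, H1f4, H2ac6, H2bc4, H2bc21 and the 6 members with the highest level per kb in each table), up to 5 called members per direction and comparison with a mean of at least 1 CPM (up to 3 from the blocked fit where fewer than 3 were called), and up to 2 genes per direction from each list. H4c4, H3c2 with passage and the levels of Slbp and Npat were named after their values were seen.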

Additional observations from a re-analysis of the deposited data

Results flagged for a closer look

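Selected values, among them levels of some panel genes and of H2bc6, were checked for a library far from the other 3 of its group. This was done in 189 sets of 4 libraries, and 10 were found. Chance flags about 1 in 20 such sets. In C56BL6 cells at 12 d and 0 Gy number 1 had 259.3 CPM of H1f0, against 146.1 to 158.4 CPM in the others, and number 2 had 1.592 CPM of H1f4, against 0.3709 to 0.4637 CPM. Number 2 also had 5.191 CPM of H1f4 at 10 Gy, against 3.521 to 3.797 CPM. At 24 h and 20 Gy C56BL6 number 3 had 2.228 CPM of H2bc21, against 1.338 to 1.434 CPM. In wild cells at 24 h and 10 Gy number 1 had 116.8 CPM of H2bc4, against 18.17 to 34.01 CPM, and 7.75 CPM of H1f10, against 1.522 to 2.46 CPM. At 12 d and 0 Gy wild number 2 had 0.07017 CPM of H2ac6, against 0.3985 to 0.4637 CPM. In *A. cahirinus* number 4 had 0.385 CPM of H2ac6 at 24 h and 0 Gy, against 0.1496 to 0.1747 CPM. Number 2 had 0.4381 CPM of H1f4 at 12 d and 0 Gy, against 0.103 to 0.1158 CPM, and 0.2405 CPM of H2bc21 at 12 d and 20 Gy, against 0.4536 to 0.4945 CPM.

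Tests of the difference between populations flagged H2bc4 and H1f0, and they also called H4c4, given above with its low levels. The change of H2bc4 at 20 Gy and 12 d was larger in *A. cahirinus* by 2.23 than in C56BL6 cells and by 1.96 than in wild cells, on the log2 scale. The H2bc4 difference from wild cells was lost without number 1, 3 or 4. The change of H1f0 with passage was higher in *A. cahirinus* than in C56BL6 cells by 0.78. This H1f0 difference was lost without any 1 of the 4 numbers and without the expression filter (adjusted p = 0.05615, edgeR).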

How the results depend on the processing

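None of the 82 changes of named genes reversed direction in the settings run. Members' medians near 0 did change sign, as in wild cells with passage (-0.16, and 0.39 without the filter) and in the difference of *A. cahirinus* from C56BL6 with passage (0.08, and -0.44 without number 3). RLE scaling and the robust fit moved no count of called members by more than 1.5 times. Shares of all genes were counted only for edgeR with all 4 numbers, with and without the block, so the counts of other settings have no background here. Without the expression filter 3 members were called in C56BL6 passaged against unpassaged cells, 0 in the same wild comparison and 2 in the *A. cahirinus* one. DESeq2 called 1 member in C56BL6 cells at 24 h at either dose, 12, 9, 4 and 15 in wild cells at 12 d (20 Gy, 10 Gy, passaged, and 20 Gy against passaged), 2 in *A. cahirinus* at 24 h and 20 Gy, 7 at 12 d and 10 Gy, 1 between 10 and 20 Gy, and 1 in the difference of *A. cahirinus* from C56BL6 at 24 h.

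The replicate block, which pairs libraries of 1 animal, moved 17 counts and left 13 within 1.5 times. With it 5 and 4 members were called in C56BL6 cells at 24 h (20 and 10 Gy) and 10 with passage. In wild cells 7 were called at 24 h and 20 Gy, 14 at 12 d at either dose, 5 with passage and 16 at 20 Gy against passaged. In *A. cahirinus* the block gave 2 and 3 at 24 h (20 and 10 Gy), 8 at 12 d and 10 Gy, and 4 between 10 and 20 Gy. For the differences of *A. cahirinus* the block gave 3 from C56BL6 at 24 h and 3 with passage, and 2 from wild cells at 24 h, at 12 d and with passage. With the block and wild number 1 at 12 d set aside, 6 (20 Gy), 3 (10 Gy) and 16 (20 Gy against passaged) were called, and 2 in the difference of *A. cahirinus* from wild cells with passage.

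Leaving out each replicate in turn called, in C56BL6 cells, 0 to 1 members at 24 h and 20 Gy, 6 to 23 at 12 d and 20 Gy, 1 to 16 at 10 Gy and 1 to 7 with passage. In wild cells it called 0 to 1 with passage and 0 to 9 at 20 Gy against passaged. In *A. cahirinus* it called 0 to 2 at 24 h at either dose, 6 to 11 at 12 d and 20 Gy, 0 to 5 at 10 Gy, 0 to 4 between 10 and 20 Gy, 1 to 2 with passage and 6 to 12 at 20 Gy against passaged. For the differences of *A. cahirinus* it called 0 to 1 from C56BL6 at 24 h, 1 to 4 at 12 d and 0 with passage, and 0 to 1 from wild cells at 12 d. The untreated wild and C56BL6 cells gave 0 to 1 at 24 h. The cause of these moves was not tested, beyond the fewer libraries that leaving 1 out gives. Depth limits the members at or below the 3-count floor.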
